A study of Mus musculus with 4 samples.

Results

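Of the 30763 peaks that the authors listed for eIF4A3 on RNA, 601 were 100 nt wide or wider, and these are the peaks described here. They were chosen by their width, counted as end minus start plus 1, so both the first and the last position belong to the peak. The list compares RNA pulled down with an antibody to eIF4A3 (2 libraries) with input RNA that skipped the pull-down (2 libraries). All 4 libraries came from J1, a feeder-free mouse embryonic stem cell line of the 129S4/SvJae strain, grown in serum with leukemia inhibitory factor and irradiated with ultraviolet light. No library carried a genetic change, and a pull-down with an unrelated antibody was not analysed here.

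eIF4A3 is the RNA helicase that clamps the exon junction complex onto messenger RNA. Splicing deposits this complex a short way upstream of each exon junction, where it stays until the ribosome or disassembly factors remove it. The complex influences splicing, export, localisation and nonsense-mediated decay of the RNA. Enhanced crosslinking and immunoprecipitation (eCLIP) fixes the contacts with ultraviolet light and sequences the RNA fragments that come down with the protein, so a peak is a stretch where such fragments pile up relative to input.

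Each peak carries 1 log2 fold change and 1 −log10 p from the authors' calling, with no value per library. The spread between replicates is therefore unknown for every peak, and so is the read depth. Peaks on 1 transcript are not replicates of each other, so differences between wide and narrower peaks are given without a p-value, as counts and medians beside those of the other 30162 peaks. Intervals on shares are Wilson 95% intervals, and those on medians come from order statistics. Both treat peaks as independent and cover counting error only. Which group is the numerator of the fold change is not stated in the list. Positions are on the mm9 build as printed there, and whether they count from 0 or from 1 is not stated. No mm9 annotation or genome was used, so genes, exons and sequences at these positions are not reported. Strand direction, 5′ to 3′, takes the strand in the list as that of the bound RNA.

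The wide peaks formed the tail of a narrow distribution. They had a median width of 113 nt (quartiles 105 and 124 nt) and reached 249 nt, while the narrower peaks had a median of 31 nt. Only 36 of them reached 150 nt. The number of peaks showed no break at the width limit: 28, 26, 33 and 26 peaks measured 98, 99, 100 and 101 nt. Their median log2 fold changes were 2.51, 2.34, 2.54 and 2.45. Their median −log10 p varied without order, at 10.2, 14.3, 10.6 and 17.9. Wide peaks lay on 20 of the 21 chromosomes in the list, all but Y. They made up from 1.46% of the peaks on chromosome 15 to 3.18% on chromosome 12.

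Wide peaks stood alone far more often than narrower ones. Same-strand peaks no more than 10 kb apart were treated as 1 cluster, and a peak with no such neighbour was called single. Of the wide peaks, 203 (33.8%, interval 30.1 to 37.7%) were single, against 2452 (8.13%, interval 7.83 to 8.44%) of the narrower ones. With clusters made at a gap of 50 kb the shares were 16.1% and 3.26%. The share of single peaks was higher among wide than among narrower peaks on each of the 20 chromosomes. It rose with width, from 2.05% of peaks of 1 to 10 nt and 12.0% at 41 to 60 nt to 28.5% at 100 to 109 nt and 50% of the 36 peaks of 150 nt or more. Wide single peaks lay a median of 48524 nt from the nearest listed peak on their strand (interval 38203 to 63316 nt), and narrower single peaks lay a median of 32600 nt away. For 19 wide single peaks (9.36%) the nearest listed peak was more than 1000000 nt away, as it was for 5.42% of narrower single peaks.

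**Figure D1:**
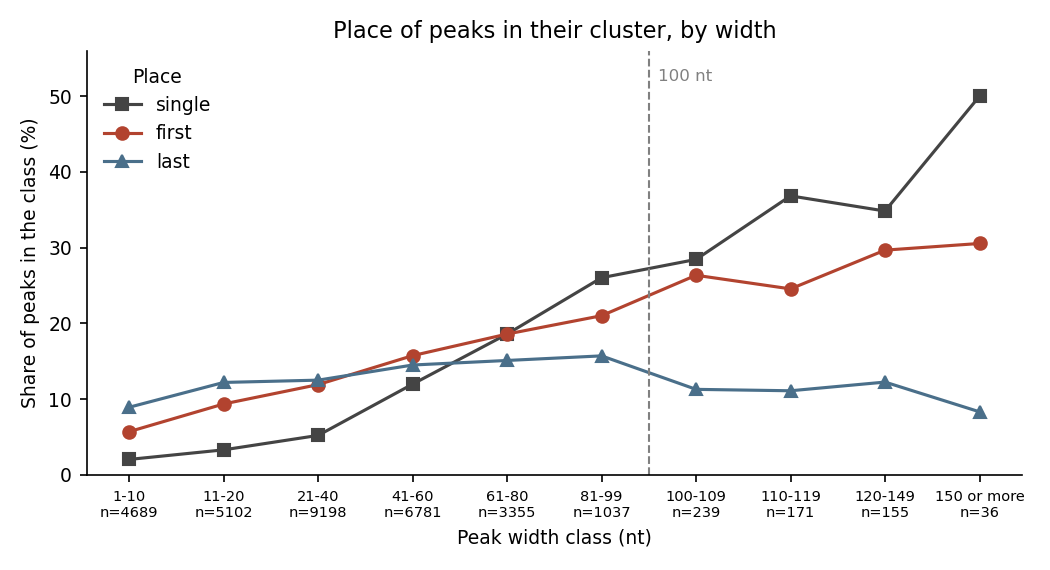
Share of peaks (%) that were single, first or last in their cluster, by class of peak width in nt, with the number of peaks in each class under the axis and the limit of 100 nt dashed. The single and first shares climb to 50% and 30.6% in the widest class, while the last share is 8.33% there and highest at 81 to 99 nt.

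Inside clusters the wide peaks were more often at the 5′ end than at the 3′ end. Of the 398 wide peaks in clusters, 168 (42.2%) were inner, 162 (40.7%) were first and 68 (17.1%) were last, against 72.6%, 13.5% and 13.9% of the narrower peaks. Each of the 3915 clusters of 2 or more peaks has 1 first and 1 last peak, so both ends offer the same number of places whatever the size of the clusters. The first peak was wide in 162 clusters (4.14%, interval 3.56 to 4.81%) and the last peak in 68 (1.74%, interval 1.37 to 2.20%), a ratio of 2.38. In 5 clusters both ends were wide. Narrower peaks were first 3753 times and last 3847 times, a ratio of 0.98. A gap of 10 kb can join neighbouring genes, and at 5 kb the ratio for wide peaks was 1.91. The ratio rose with width, from 0.64 for peaks of 1 to 10 nt and 1.09 at 41 to 60 nt to 1.34 at 81 to 99 nt and 2.33 at 100 to 109 nt.

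The 5′ excess was seen on both strands. On the plus strand 94 first and 34 last peaks were wide, and on the minus strand 68 first and 34 last. It therefore followed the strand and not the direction of the chromosome's coordinates. By chromosome, wide peaks were first more often than last on 17 of 20, equally often on 2 (chromosomes 7 and 19) and less often on chromosome X, where 0 were first and 1 was last.

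The excess at the 5′ end was small in clusters of 2 peaks and larger in bigger ones. In clusters of 2 peaks, 54 first and 43 last peaks were wide. In clusters of 3 to 4 peaks the counts were 47 and 14, and in clusters of 5 to 9 peaks they were 38 and 3. Clusters of 10 to 19 peaks had 15 and 7, and clusters of 20 or more had 8 and 1. Over the clusters of 5 or more peaks the ratio was 5.55, against 0.97 for narrower peaks in the same clusters.

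**Figure D2:**
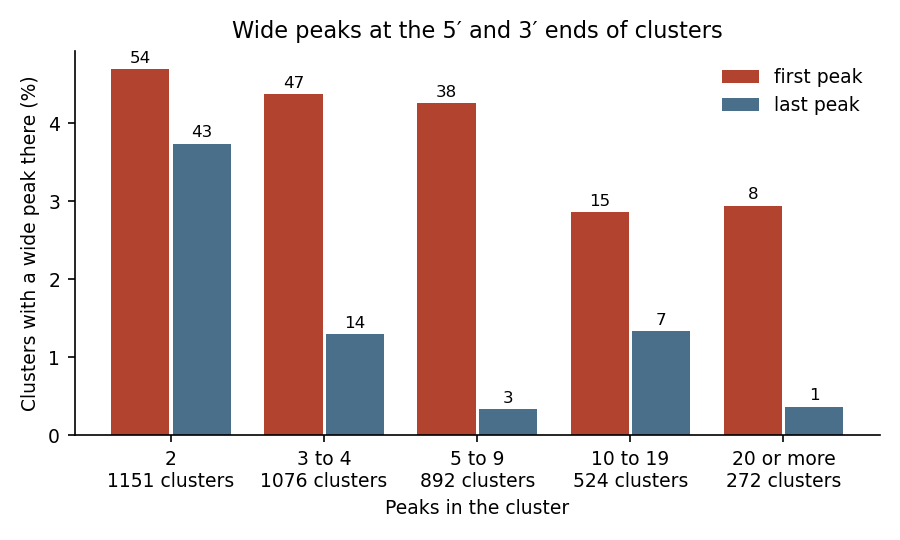
Share of clusters (%) whose first peak (red) or last peak (blue) in strand direction was 100 nt or wider, by the number of peaks in the cluster, with the number of wide peaks above each bar. The red bar is higher in all 5 classes, by 54 against 43 in clusters of 2 peaks and by 38 against 3 in clusters of 5 to 9.

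Even the wide peaks that were neither first nor last leaned towards the 5′ end. In clusters of 5 or more peaks there were 141 inner wide peaks, and 29 of them (20.6%) were the next after the first peak, as against 8.90% of inner narrower peaks. The place just before the last peak held 16 (11.3%), against 8.97%. Both shares depend on cluster size, which was not matched. Of the 141 inner wide peaks, 50 were in clusters of 5 to 9, against 3934 of the 18643 inner narrower peaks. When the ranks of a cluster were split into 3 equal parts, 53 inner wide peaks lay in the 5′ part, 60 in the middle and 28 in the 3′ part. The 3′ part thus held 19.9% of them and 30.8% of the inner narrower peaks.

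Large clusters held few wide peaks for their number of peaks. The share of peaks that were wide fell from 7.65% among single peaks and 4.21% in clusters of 2 to 0.60% in clusters of 20 or more. Counted by cluster, the order turned: 15.8% of the clusters of 20 or more peaks held at least 1 wide peak, against 8.25% of the clusters of 2. Of the 561 clusters and single peaks with a wide peak, 526 had 1, 30 had 2 and 5 had 3.

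The neighbours of wide peaks were distant, most of all on the 5′ side. The median distance to the 5′ neighbour on the strand was 39055 nt (interval 25303 to 64754 nt) for wide peaks and 753 nt for narrower ones. To the 3′ neighbour it was 5610 nt (interval 3525 to 8559 nt) against 755 nt. Narrower peaks thus had like distances on both sides, and wide peaks did not. A 5′ neighbour lay within 10 kb of 39.3% of wide peaks and a 3′ neighbour within 10 kb of 55.1%, while for narrower peaks the shares were 79.5% and 79.2%. These distances and the places in clusters come from the same positions, so they are not separate evidence. To the nearest peak on either side the median was 1036 nt for wide peaks, 15890 nt for those of at least 150 nt and 61 nt for narrower ones. With adjoining peaks merged the contrast was smaller, at 1240 nt for peaks of 100 nt or more and 460 nt for the others.

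**Figure D3:**
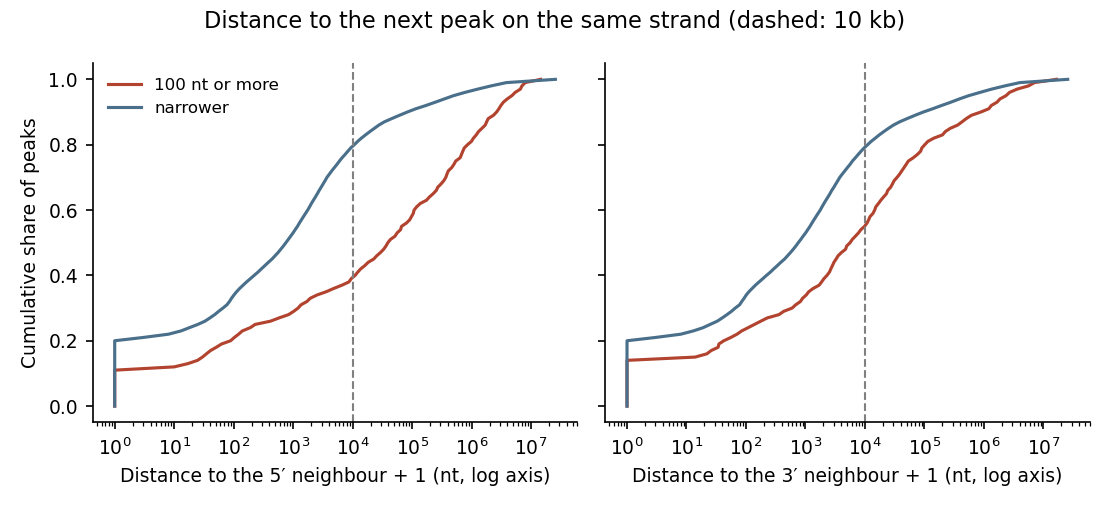
Cumulative share of wide (red) and narrower (blue) peaks by the distance in nt, on a log axis with 1 added, to the neighbouring peak on the 5′ side (left) and the 3′ side (right), with the 10 kb limit of clusters dashed. At 10 kb the red curve is at 39.3% on the left and 55.1% on the right, and the blue curve is near 79% on both.

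At short range the difference was smaller. Of the wide peaks, 142 (23.6%, interval 20.4 to 27.2%) adjoined another peak with no base between them, against 36.8% of the narrower ones. The adjoining peak was on the 3′ side alone for 72 wide peaks, on the 5′ side alone for 57 and on both sides for 13. The peaks that adjoined a wide peak were themselves broad, with a median width of 61 nt, against 25 nt for those that adjoined a narrower peak.

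Fold changes of wide peaks were lower than those of narrower peaks. The authors' log2 fold change of wide peaks ran from 2.00 to 4.60, with a median of 2.46 (interval 2.42 to 2.53), which is 5.51-fold. For narrower peaks the median was 2.73 (6.61-fold) and the highest value 6.24. At the threshold of 8-fold with p at most 0.001, 32.3% of all listed peaks passed, and 102 of the 601 wide peaks did (17.0%, interval 14.2 to 20.2%). At 16-fold with p at most 1e-05, 3.65% of all peaks passed, and 11 wide peaks did (1.83%). The lowest −log10 p in the list is 5.01, so neither p limit removed a peak. The lowest log2 fold change in the whole list is 2.00, and 183 wide peaks (30.4%) lay within 0.25 of that floor, against 16.2% of narrower ones. Near the lowest −log10 p it was the reverse: 22.6% of narrower peaks had a −log10 p of 5 to 7, against 7.32% of wide ones. How these 2 lower limits of the list shape the medians was not tested. The median was lower for wide peaks on all 20 chromosomes. The direction turned when adjoining peaks were merged and took the highest of their fold changes: merged peaks of 100 nt or more then had a median log2 of 2.76 and the others 2.74.

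The −log10 p of wide peaks was higher. The median was 10.3 for narrower peaks and 5.31 above that for wide ones, whose quartiles were 10.1 and 25.8, against 7.22 and 15.9. The wide median was the higher on all 20 chromosomes. Among peaks past 8-fold the difference was 8.57. The highest value, 400, was given to 10 wide peaks (1.66%) and to 79 narrower ones (0.262%). Peaks of like fold change differed in the same way: between log2 fold changes of 2.5 and 3 the median −log10 p was 18.1 for 179 wide peaks and 10.6 for narrower ones. Read the other way, among peaks with a −log10 p from 10 to 15, the median log2 fold change was 2.40 for 143 wide peaks and 2.72 for narrower ones. The number of reads behind a peak is not in the list, so whether wide peaks rest on more reads was not tested.

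**Figure D4:**
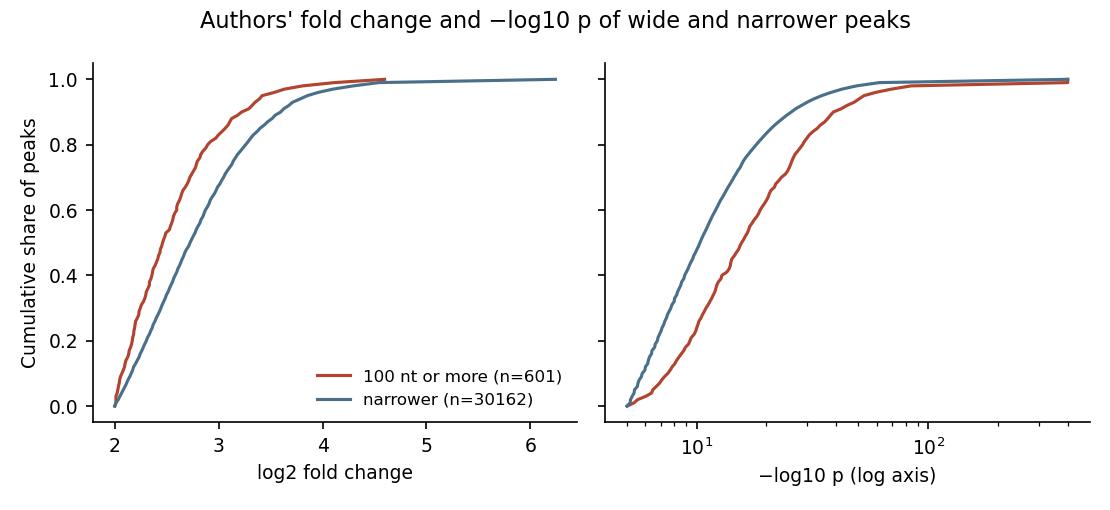
Cumulative share of wide (red, 601) and narrower (blue, 30162) peaks by the authors' log2 fold change (left) and −log10 p (right, log axis). The red curve lies to the left of the blue one for fold change, with medians of 2.46 and 2.73, and to the right for −log10 p, with upper quartiles of 25.8 and 15.9.

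Compared within their own clusters, wide peaks kept the high −log10 p, while the difference in fold change was smaller. In 356 clusters that held both wide and narrower peaks, the −log10 p of the wide peaks was above the median of the narrower ones in 328 (92.1%), by a median of 8.72. A wide peak had the highest −log10 p of its cluster, or shared it, in 272 of the 356 (76.4%), where wide peaks made up a mean of 26.6% of the peaks. The log2 fold change of the wide peaks was lower in 222 of these clusters and higher in 133, with a median difference of -0.12. The highest fold change of the cluster belonged to a wide peak in 66 (18.5%).

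The place in the cluster went with these values too. Wide first peaks had a median −log10 p of 19.1 and wide last peaks of 15.0, beside 8.98 and 8.04 for narrower peaks in those places. Wide inner peaks had 21.4 and wide single peaks 10.6, beside 11.9 and 6.80. Of the 162 wide first peaks, 124 (76.5%) held or shared the highest −log10 p of their cluster, against 32.4% of narrower first peaks. Of the 68 wide last peaks 49 (72.1%) did, against 21.7% of narrower last peaks. These shares pool clusters of all sizes. Clusters of 2 held 43 of the 68 wide last peaks and 54 of the 162 wide first ones. There 86.0% of the last and 83.3% of the first were highest. In clusters of 3 to 4 the counts were 7 of 14 last and 39 of 47 first. At 5 to 9 they were 2 of 3 and 27 of 38. At 10 to 19 they were 3 of 7 and 9 of 15, and at 20 or more 0 of 1 and 4 of 8. Single wide peaks had the lowest median log2 fold change of the 4 places, 2.37, and inner ones the highest, 2.56.

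A high −log10 p went with first over last places, so the 5′ excess was also set out by class of −log10 p. It did not go with first places as such, since narrower inner peaks had the higher median, 11.9 against 8.98. Among narrower peaks the ratio of first to last rose from 0.79 at a −log10 p of 5 to 7 and 0.93 at 7 to 10 to 1.43 at 20 to 30 and 3.29 at 60 or more. Among wide peaks it was 2.33 (7 first and 3 last) at 5 to 7, 1.21 (17 and 14) at 7 to 10, 1.94 (33 and 17) at 10 to 15, 1.80 (27 and 15) at 15 to 20, 4.30 (43 and 10) at 20 to 30, 4.50 (27 and 6) at 30 to 60 and 2.67 (8 and 3) at 60 or more. The wide ratio was thus above the narrower one in each of the 7 classes but the highest. It rests on few peaks both there (8 and 3) and in the lowest class (7 and 3). Single peaks made up a larger share of the wide peaks in all 7 classes, 39.2% against 3.90% at a −log10 p of 10 to 15.

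The 10 widest peaks measured from 174 to 249 nt, and 6 of them were single. The widest, 249 nt at chr3:88968779-88969027 (plus strand), reached 7.06-fold and a −log10 p of 400. It was the first of a cluster of 11 peaks, with the next one 9147 nt downstream and none on its strand nearer than 179078 nt upstream. The next in width, 209 nt at chr2:38142634-38142842 (minus strand), was single, at 9.31-fold and a −log10 p of 69.3. Next came a single peak of 203 nt at chr3:107499086-107499288 (minus strand), at 6.05-fold.

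The other peaks of this group covered both solitary and crowded settings. A peak of 188 nt at chr2:59623455-59623642 (plus strand) was the peak next after the first in a cluster of 22, at 6.05-fold. A peak of 185 nt at chr2:180423958-180424142 (minus strand) lay inside a cluster of 10 at 4.40-fold. A peak of 182 nt at chr8:63461861-63462042 (minus strand), was the first of 4 peaks at 4.94-fold, and no peak on its strand lay nearer than 3796594 nt upstream. The single ones were a peak of 186 nt at chr6:47404305-47404490 at 5.13-fold, one of 186 nt at chr19:45734531-45734716 at 10.2-fold, one of 177 nt at chr1:91398812-91398988 at 5.97-fold, and one of 174 nt at chr13:96661643-96661816 at 4.14-fold. The 10 fold changes thus spanned 4.14 to 10.2, and the widest peak did not have the highest.

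The 5 wide peaks with the highest fold changes measured from 101 to 125 nt, beside a median of 113 nt for all wide peaks. Both leaders stood at 24.2-fold. One covered 125 nt at chr1:173259690-173259814 (plus strand), as the first of 3 peaks with a −log10 p of 23.9. The other was a single peak of 119 nt at chr10:19627271-19627389 (minus strand), with a −log10 p of 12.0. Equal fold changes thus carried unequal p-values.

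The next were inside clusters or at their 5′ end. A peak of 108 nt at chr2:76624299-76624406 (minus strand), was the 13th of 26 peaks, at 20.7-fold. A peak of 120 nt at chr5:116025173-116025292 (plus strand), was the 10th of 124 peaks, at 19.9-fold and a −log10 p of 86.4. A peak of 101 nt at chr16:5165863-5165963 (plus strand), was the first of 2, at 18.2-fold and a −log10 p of 8.60.

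Of the 10 wide peaks at the highest listed −log10 p of 400, the 6 with the highest fold change, the last 2 of which were tied at 7.06-fold, were the widest peak already described and 5 others. A peak of 147 nt at chr1:155303326-155303472 (minus strand), was the fourth of 6 peaks at 14.0-fold. A peak of 172 nt at chr2:17986320-17986491 (plus strand), was the first of 6 at 11.6-fold, with no peak on its strand nearer than 3948802 nt upstream. A peak of 120 nt at chr4:147412790-147412909 (minus strand), was the first of 29 at 10.6-fold. A peak of 145 nt at chr16:18877441-18877585 (plus strand), was the 3′ member of a cluster of 2 at 7.44-fold. The peak tied with the widest one, 130 nt at chr9:119231192-119231321 (minus strand), was the fourth of 5. Of these 6 peaks, 3 were thus first in their cluster, 2 were inner and 1 was last.

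The 5 clusters with 3 wide peaks each differed in layout. At chr6:140572456-140586265 (plus strand) the first 3 of 6 peaks were wide (125, 108 and 155 nt), 27 and 0 nt apart, at 4.60-fold, 5.14-fold and 4.14-fold. The other 3 peaks followed 9456 nt or more downstream, the nearest of them 91 nt wide at 8.89-fold. The wide peaks there formed 1 stretch at the 5′ end with folds below those of the narrower peaks.

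The cluster at chr11:69484766-69507176 (minus strand), was laid out the other way. Its wide peaks were the last of 12 peaks (126 nt, −log10 p of 400, 5.63-fold) and the 10th and 8th in strand direction (109 and 101 nt, at 4.29-fold and 4.82-fold). All 3 lay within the last stretch of the cluster, beyond a gap of 2017 nt.

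In the remaining 3 clusters the wide peaks were spread out. At chr2:59623408-59653609 they were numbers 2, 8 and 10 of 22 (188, 110 and 103 nt). At chr7:26067241-26078104 they were numbers 3, 4 and 18 of 27 (111, 103 and 149 nt). At chr8:125897716-125922466 they were numbers 2, 5 and 13 of 32 (115, 116 and 101 nt). All 3 were on the plus strand, none of them began or ended with a wide peak, and the wide peak nearest the 5′ end had the highest fold change of the 3 in each, at 6.05-fold, 7.06-fold and 6.84-fold.

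**Figure D5:**
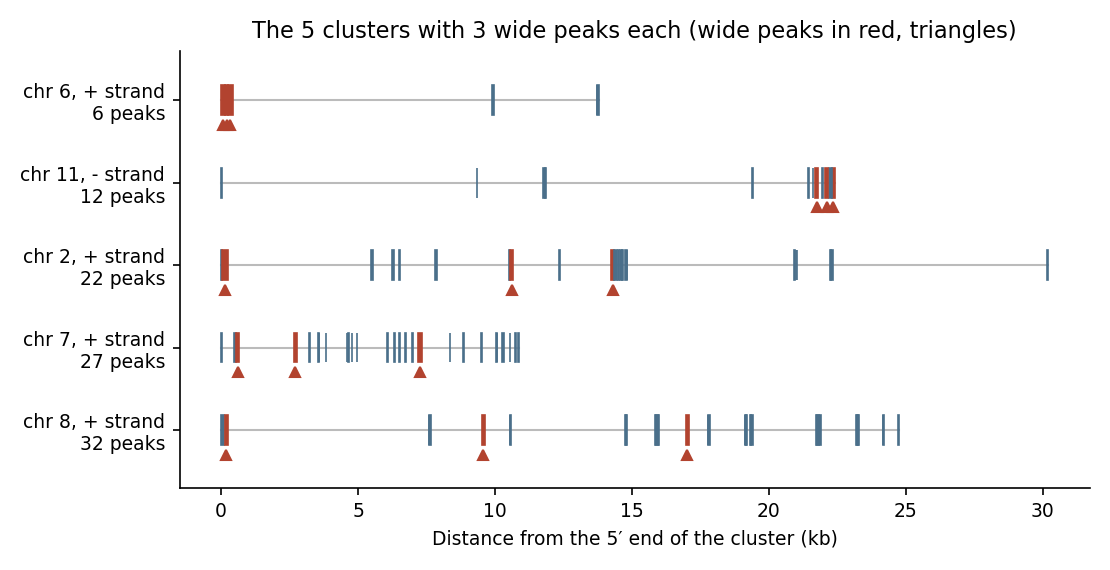
Maps to scale of the 5 clusters with 3 wide peaks, drawn 5′ to 3′ from the start of each cluster in kb, with peaks of 100 nt or more in red over triangles and narrower peaks in blue. The red peaks sit together at the 5′ end on chromosome 6 and at the 3′ end on chromosome 11, and are spread along the other 3.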

How the data were processed

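The list has 1 row per peak with position, strand, fold change and p. Per the submitters' processing notes, cutadapt 1.18, STAR 2.6.1b and the mm9 build were used; the caller, its test and filters, and any pooling of replicates are not stated in these sources. The deposited values are a log2 fold change and a −log10 p-value per peak, as the authors made them. The lowest are 2.00 and 5.01. Names number up to 144404, in falling order of −log10 p within each chromosome and strand.

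Start and end both belong to a peak, since 6362 peaks start at the position after another's end and 0 overlap on 1 strand. Distances count the bases between peaks. Clusters join peaks within 10 kb on the same strand. Ties for the highest value of a cluster count for each tied peak. No model was fitted. Peaks named by position are the 10 widest, the 5 wide peaks highest in fold change, the 5 highest in −log10 p (ties by fold change, with both peaks tied for the fifth place named), and the 5 clusters with the most wide peaks. The members and these lists were chosen with earlier results of these data known. Alternatives were other width limits and cluster gaps, merged adjoining peaks, and subsets of peaks. The code was tested on simulated layouts. Python 3.11.15, numpy 2.4.6, pandas 2.3.3, scipy 1.17.1 and matplotlib 3.10.9 were used.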

Additional observations from a re-analysis of the deposited data

How the results depend on the processing

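Wide peaks were first more often than last, and single more often than narrower peaks, under every alternative run, but the sizes moved. The ratio of first to last was 1.65 at a width of at least 80 nt, 3.67 at 150 nt, 3.27 with a cluster gap of 50 kb and 5.55 in clusters of 5 or more. The percent single was 28.5 at 80 nt, 37.7 at 120 nt, 50 at 150 nt, 26.1 with adjoining peaks merged and 16.1 at a gap of 50 kb. The median distance to the nearest peak was 1036 nt, and 15890 nt for the 36 peaks of at least 150 nt. With adjoining peaks merged it was 1240 nt, while that of the narrower peaks went from 61 to 460 nt. The difference in median log2 fold change (-0.26) turned to 0.019 with adjoining peaks merged, where each merged peak takes the highest of its fold changes. It was -0.048 among peaks past 8-fold and -0.12 within clusters. The difference in median −log10 p (5.31) was 3.82 at 80 nt, 6.56 at 120 nt, 6.66 at 150 nt, 7.73 merged, 8.57 past 8-fold and 8.72 within clusters. A merged peak also takes the highest of its −log10 p values, so the merged value is partly set by that rule. The 1240 nt and the values not listed in this paragraph, 14 in all, lay within the interval of the reported one. No paired analysis was possible because the list gives no values per replicate, and no replicate could be left out for the same reason. Depth limits each value by an unknown amount.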

Other observations

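Merging peaks that adjoin gave 24401 peaks, of which 1388 were 100 nt or wider. Of these, 459 were single rows of the list and 929 were joined from 2 or more. The 929 joined stretches were less solitary than the 601 wide peaks as listed: 159 (17.1%) were single, 446 (48.0%) were inner, 219 (23.6%) were first and 105 (11.3%) were last in their cluster. First places thus outnumbered last ones among the joined stretches. These stretches take in the 142 wide peaks that adjoined another peak, so they are not a separate set from the 601.

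Few peaks had a peak on the opposite strand nearby, but the share was higher among wide than among narrower ones. Such a peak lay within 1000 nt of 10 wide peaks (1.66%, interval 0.91 to 3.04%) and of 95 narrower ones (0.315%, interval 0.258 to 0.385%). Over all listed peaks the share was 0.341%. Of the 10, 4 were single, 4 were first and 2 were inner, and 0 of the 68 last wide peaks were among them (Wilson upper limit 5.35%). Among narrower peaks the shares were 0.816% of single, 0.853% of first, 0.174% of inner and 0.208% of last peaks. The wide ones included a single peak of 165 nt at chr14:68334265-68334429 (plus strand) with a fold change of 13.6, which had the highest fold change of the 10 and was chosen after its values were seen.

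For scale, exon lengths (not positions) were taken from GENCODE M21, which is on another build. Among exons of coding transcripts, 67.4% of inner exons, 75.5% of first exons and 97.2% of last exons were 100 nt or longer, with medians of 124, 176 and 908 nt. In transcripts of 2 or more exons the last exon thus had the longest median. The place of a peak in its cluster is not the place of its exon in a transcript, and which exons hold the peaks was not tested.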
